A study of Pinus pinaster with 6 samples.

Results

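The 77 probes described here were chosen by their measured ratios: in each of 3 maritime pines (Pinus pinaster) the log2 ratio between crown and base developing xylem was -0.4 or lower, with the sign as deposited. They make up 2.23% of the 3448 probes of a cDNA microarray. The ratios chose the members, so their size is given as a description and is not tested. Each tree supplied both tissues. Crown material came from the last 5 internodes and base material from the lowest metre of the trunk, and each pair of RNAs from one tree was amplified, labelled with Cy3 and Cy5 and hybridised together. Tree 1 was 29 years old and tree 2 was 31, both harvested in May 2005, and tree 3 was 28 and harvested in May 2007. All were straight adult trees grown in the field at one site, and no treatment is named. Crown RNA carried Cy5 and base RNA Cy3 in tree 1, with the opposite order in trees 2 and 3. Each tree has 2 technical repeats on the same array, which were averaged, so n = 3 trees.

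Developing xylem is the sheet of young tracheids, the water-conducting and supporting cells of conifer wood, that can be scraped off once bark and phloem are removed. In conifers the wood laid down near the top of the stem is of juvenile type, with short tracheids and a wide angle of the cellulose microfibrils in the wall. The wood added at the base of an old trunk is of mature type, with longer tracheids and thicker walls. A ratio between these tissues within one tree thus sets xylem of different cambial age and height against each other, with the genotype held the same. In a two-colour array both labelled RNAs compete for each probe, and only the relative brightness of the dyes is reported.

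A negative ratio could not be assigned to a tissue. The sample titles name the crown first, and under that reading the 77 probes had more RNA in the base. If the columns of trees 2 and 3 are instead Cy5 over Cy3, and tree 1 was turned to match, the same probes had more RNA in the crown. If no column was turned, the 77 probes were brighter in Cy3 in every tree, which is the base in tree 1 and the crown in trees 2 and 3. Their shared sign would then follow the dye and not the tissue. Whether the columns were turned before deposit is not given in the labels. With the sign of tree 1 reversed, only 2 probes met the rule. The 77 could not be among them, since each was chosen with tree 1 at -0.4 or lower. Which reading holds was not tested. The table carries position codes and no gene names, so no probe can be tied to a gene, a wall polymer or a pathway, and markers of xylem, phloem or other tissue could not be checked. Labels of the form Q7H1 are codes, read here as plate, row and column.

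Most members had modest ratios. The mean over the 3 trees had a median of -0.78, a 1.71-fold difference if the values are log2, with quartiles of -0.98 and -0.64. The member nearest to 0 had a mean of -0.46, or 1.37-fold. A mean of at least 2-fold (-1 or lower) was reached by 19 members, and 11 of these were at -1 or lower in each tree. The other 58 members, 75.3%, had smaller means. The table holds 20 probes with a mean of -1 or lower, so nearly all strongly negative probes met the rule. A mean of at least 4-fold was reached by 4 probes, all members.

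**Figure D1:**
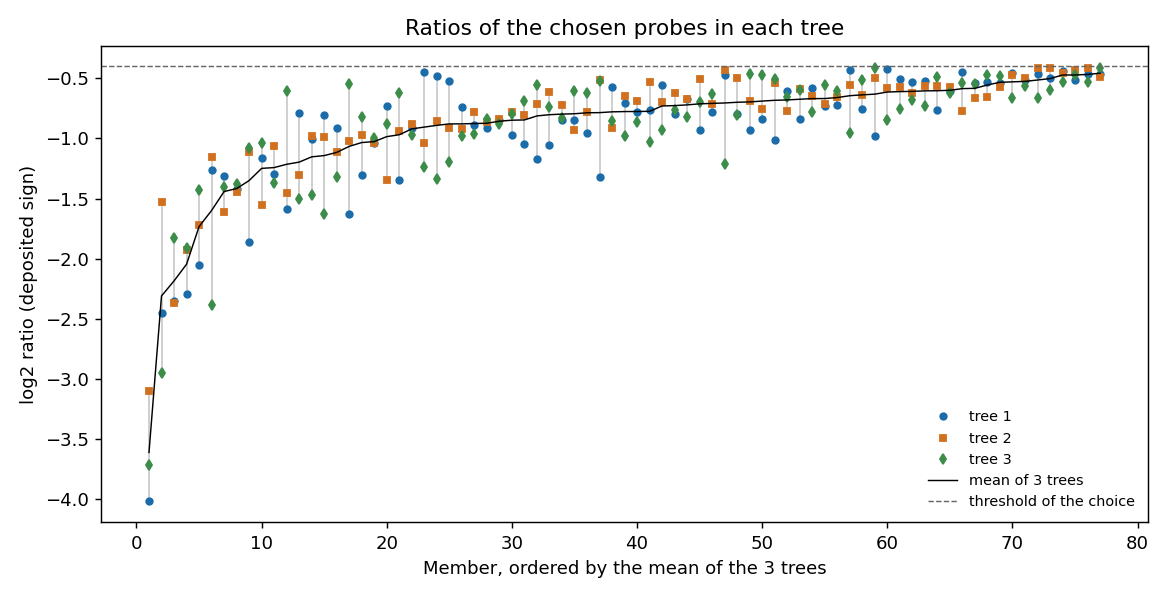
Log2 ratio of each of the 77 chosen probes in trees 1, 2 and 3 (points; each is the mean of 2 technical repeats), ordered by the mean of the 3 trees (black line), with grey bars from the lowest to the highest tree. The lowest probe stands apart at a mean of -3.61, 4 probes lie at -2 or lower, and most of the rest lie between -1 and the dashed line at -0.4.

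The lowest member, Q7H1, stood apart from all others. Its 6 values were -4.12 and -3.90 in tree 1, -3.21 and -2.99 in tree 2 and -3.85 and -3.59 in tree 3. The ratio was strongest in tree 1 and weakest in tree 2, and even the weakest repeat was below the mean of every other member. The mean of the trees was -3.61 ± 0.46 (SD, n = 3), or 12.2-fold.

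The next member, Q6I16, varied most between trees. Its values were -2.46 and -2.45 in tree 1, -1.53 and -1.53 in tree 2, and -3.30 and -2.59 in tree 3. The repeats nearly coincided in trees 1 and 2 and lay apart in tree 3, while the trees differed by 1.42 from lowest to highest, the widest range among the members. The mean was -2.31 ± 0.72 (SD, n = 3).

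The following members by rank were closer together. The third lowest had tree means of -2.35, -2.37 and -1.83, weakest in tree 3, and a mean of -2.19 ± 0.31 (SD, n = 3). The member at rank 4 had -2.30, -1.93 and -1.91, strongest in tree 1, and a mean of -2.05 ± 0.22 (SD, n = 3). These 2 members and Q7H1 and Q6I16 are the 4 that reached 4-fold. The member at rank 5 had -2.05, -1.72 and -1.43 in trees 1, 2 and 3, which again put tree 1 lowest.

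Below these, members differed in how evenly the trees contributed. The sixth had a mean of -1.60 ± 0.68 (SD, n = 3) and was lowest in tree 3, at -2.39 against -1.26 and -1.15 in trees 1 and 2. The eighth was nearly level, at -1.42, -1.45 and -1.38, with a mean of -1.42 ± 0.035 (SD, n = 3). The ninth was lowest in tree 1, at -1.86 against -1.11 and -1.08. Members of similar rank thus ranged from level over the trees to clearly lower in 1 tree, though each of these was at -1 or lower in every tree.

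Over all members the trees gave similar depths, but the rule cut each tree at the same -0.4, which favours such likeness. Trees 1, 2 and 3 had member medians of -0.79, -0.72 and -0.78, and lower quartiles of -1.04, -0.98 and -1.03. Tree 3 was the lowest of the trees for 34 members, tree 1 for 30 and tree 2 for 13. Tree 2 also had the narrowest ratios over all probes, with an SD of 0.352 against 0.405 in each of the other trees. The trees agreed on which members were strongest only in part: 5 members were among the lowest 10 in every tree.

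The median spread between trees was hardly wider among the members than elsewhere on the array. The SD of the 3 tree means had a median of 0.167 among members and 0.158 among the other probes, with a range from 0.0188 to 0.720 among members. In absolute terms the 19 members at 2-fold or more were more uneven, with a median range over trees of 0.541 against 0.247 in the other 58. Relative to their own mean these ranges were alike, at 41.3% and 38.8%. Because the rule cut each tree at the same value, members with means near that value had little room to spread. No such cut was set for the other probes. These spreads and their likeness are thus descriptions of chosen probes and were not tested. The trees lay within 0.2 of each other for 27 members and more than 1 apart for 3.

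The order of members was shared unevenly between trees. Over the 77 members, Pearson's correlation of tree 2 with tree 1 was 0.85, and with tree 3 it was 0.78. That of tree 1 with tree 3 was lower, at 0.72. Spearman's rank correlation for these pairs was 0.64, 0.64 and 0.31. Without Q7H1, Pearson's correlation over the remaining 76 members was 0.77, 0.68 and 0.56. These are descriptions across probes, which share the arrays and were all cut off at -0.4. Trees 1 and 3 differ in both dye order and harvest year, trees 1 and 2 share the year, and trees 2 and 3 share the dye order. With so few trees, dye order and year cannot be told apart from the individual tree or its age, and their part was not tested.

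Among the members, tree 1, the tree of opposite dye order, did not sit to one side of the others. The rule asked for -0.4 or lower in tree 1 as well, so probes where it stood far above the others were left out. The placing of tree 1 is thus a description of chosen probes, and a dye effect was not tested. Its ratio was below both other trees in 30 members, between them in 25 and above both in 22. The difference of tree 1 from the mean of trees 2 and 3 had a median of -0.0089, with quartiles of -0.24 and 0.13. It reached 0.4 or more in size in 17 members, lower in tree 1 for 11 and higher for 6, and ran from -0.84 to 0.69. A dye difference of a single probe cannot be told apart from a difference of that tree, since only 1 tree had the swapped order.

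**Figure D2:**
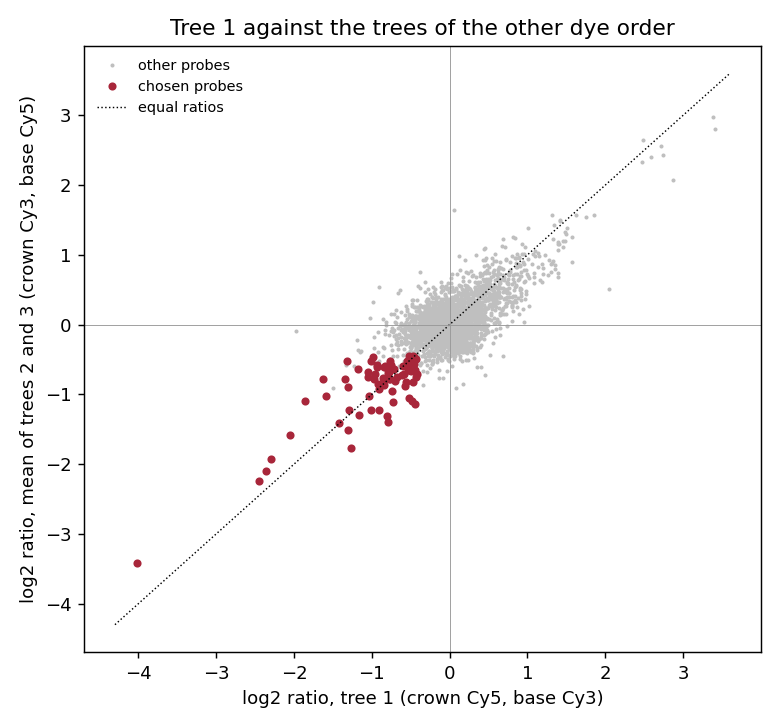
Log2 ratio of every probe in tree 1 (horizontal) and as the mean of trees 2 and 3, which have the other dye order (vertical); red points are the 77 chosen probes, grey points the other 3371 and the dotted line equal ratios. The red points lie on both sides of the line, with a median difference of -0.0089, and Q7H1 lies apart at the lower left.

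The averages of the technical repeats chose the members, so low values in single columns largely follow from the rule and are given as a description. All 6 columns were at -0.4 or lower for 67 members, and the other 10 had 13 values above -0.4 out of 462. No member had a positive value in any column, and the highest single value was -0.028. That value came from a member with repeats of -0.028 and -1.005 in tree 1, -0.58 and -0.41 in tree 2, and -0.27 and -0.85 in tree 3. This member met the rule only through averages of unlike repeats in trees 1 and 3. Another had -0.12 and -0.75 in tree 2, the tree that placed it nearest to the threshold.

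The median absolute difference between repeats was 0.0571, 0.0643 and 0.0816 in trees 1, 2 and 3 among members, against 0.0501, 0.0580 and 0.0700 among other probes. The SD between trees exceeded the mean SD between repeats for 66 of the 77 members (85.7%), close to the 89.2% of all probes. In tree 3 the first repeat was the lower for 56 members (72.7%, against 49.1% of the other probes), and in tree 2 for 52 (67.5%, against 51.4%). In tree 1 the split was even, at 40 members. Among the 177 probes at 0.4 or higher in each tree, the first repeat was the higher for 111 (62.7%), 64 (36.2%) and 95 (53.7%) in trees 1, 2 and 3. Their median difference, first repeat minus second, was 0.026, -0.028 and 0.0063. In tree 2 the first repeat was thus the lower for most probes of both sets, so that lean was not particular to the members. The lean among members had a median difference of -0.061 in tree 3 and -0.033 in tree 2, against 0.0021 and -0.0037 among the other probes. Its cause was not tested.

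The threshold cut through a continuous range. The 3 members nearest to it had their highest tree mean at -0.410, -0.411 and -0.412, each in tree 2. The 3 probes just outside had theirs at -0.398, -0.397 and -0.397, each in tree 3. Within 0.05 of the threshold lay 12 members and 13 other probes. A threshold of -0.3 would have given 113 probes and one of -0.5 would have given 57.

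A further 103 probes were at -0.4 or lower in 2 trees and missed in the third. Tree 1 kept out 39 of them, tree 2 kept out 33 and tree 3 kept out 31. The ratio in the tree that kept them out was within 0.1 of the threshold for 8, 13 and 10 probes, and it was positive for 13, 8 and 4. Most were therefore clear misses in 1 tree. The median ratio in that tree was -0.13, -0.24 and -0.19 in the same order. The strongest of all probes left out had -1.50 in tree 1, -1.47 in tree 2 and -0.34 in tree 3. Both of its repeats in tree 3 were near that value, at -0.36 and -0.33.

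Single trees gave far more negative probes than the rule kept. Tree 1 had 294 probes at -0.4 or lower, of which the members are 26.2%. Tree 2 had 200 (38.5%) and tree 3 had 227 (33.9%). Of the 782 probes negative in all 3 trees, 9.85% were members. The same rule with the sign turned (0.4 or higher in each tree) found 177 probes, which is 22.2% of the 798 probes positive in all trees. Both directions thus held nearly the same number of probes of one sign, while large ratios were fewer on the negative side.

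In the limma fit of the 3 tree means against 0, 165 probes with a negative mean were called (adjusted p under 0.05), 4.79% of the table. All 77 members were among them. The rule used the same ratios, so this count follows from the choice and supports nothing. The other 88 called probes were consistent enough to pass but had at least 1 tree above -0.4.

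The members were scattered over the 9 plates, in which the codes run over 16 rows and 24 columns. Plate 3 held the most, 14 of 384 (3.65%), then plate 2 with 11 (2.86%) and plate 7 with 9 (2.34%). Plate 9 held the fewest, 5 of 376 (1.33%), and the other plates held 7 or 8. The strongest members were not on the plate with the most: Q7H1 was on plate 7, Q6I16 on plate 6, and the members at ranks 3, 4 and 5 on plate 4. Plate 4 had the lowest median member mean, -1.06, against -0.88 to -0.67 elsewhere. The 177 positive probes were arranged otherwise, with 38 on plate 7, 37 on plate 1 and 1 on plate 9, where 5 members lay.

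Within plates the members did not form a patch. They fell into 68 of the 216 groups of 4 by 4 adjoining codes, with 2 members in 9 of these groups and never more. Only 2 pairs of members occupied directly adjoining codes. One pair was the sixth member and the 39th, with means of -1.60 and -0.78. The other was the 41st and the 48th, with -0.77 and -0.70.

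One place within the 4 by 4 groups held more members than the rest. The first row and first column of each group, 216 codes or 6.26% of the probes, held 15 members, or 19.5% of the 77. The share of members there was 6.94%, against 1.92% (62 of 3232) over the other 15 places, each of which held 3 to 6. The place was singled out after its count was seen, and no test was made. It recurred in each tree: 32, 29 and 25 of its probes were at -0.4 or lower in trees 1, 2 and 3, against at most 31, 21 and 20 at any other place. In tree 1 the next place thus came within 1 probe. The same 15 members are part of all 3 counts.

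The surplus lay in the lower tail and not in the whole distribution of that place. Its median ratio was 0.040, -0.027 and -0.0074 in trees 1, 2 and 3, while its 5th percentile of the mean ratio was -0.64, against -0.46 to -0.27 at the other places. Its 15 members were somewhat weaker than the rest, with a median mean of -0.68 against -0.79 for the other 62. Only 1 of them was among the 19 members that reached 2-fold. They came from 7 plates, 5 of them from plate 2, with none on plates 1 and 6. Probes at 0.4 or higher in each tree numbered 17 there, equal to the highest count at any other place. The median SD between repeats was 0.0555 there, within the range of 0.0390 to 0.0588 at the other places. When each of the 16 places was centred on its own median in each column, 73 probes met the rule, all of them members, and 15 lay at this place. The median of the mean ratio ran only from -0.040 to -0.0059 over the places. Centring thus moved values little and could not have removed a surplus in the tail. Whether the place reflects the printing of the slide or the order of the clones was not tested.

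**Figure D3:**
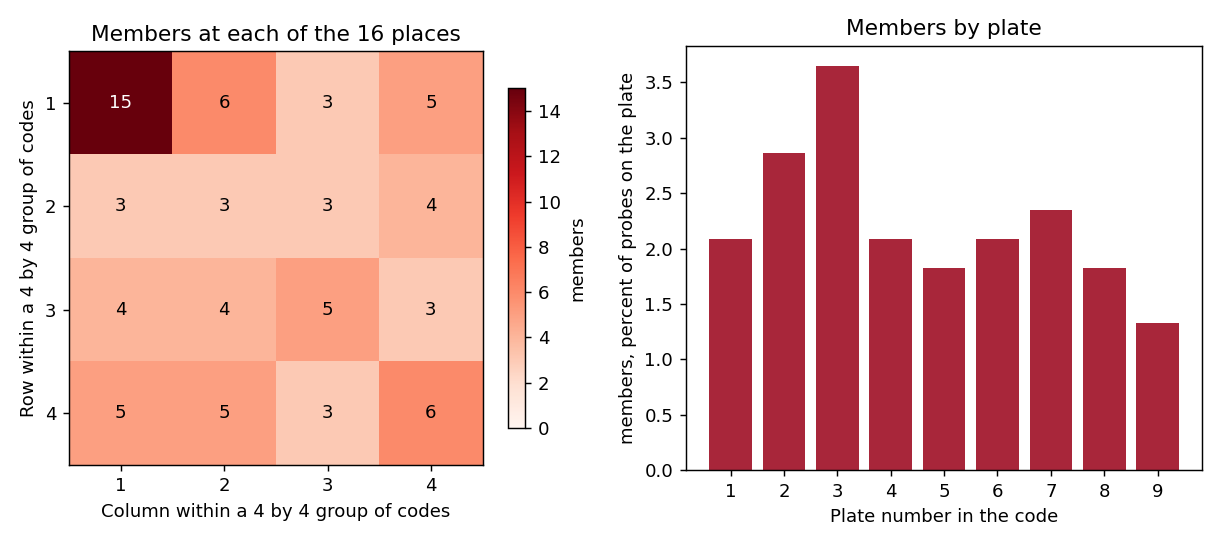
Left, number of the 77 chosen probes at each of the 16 places within the 4 by 4 groups of position codes (row and column within the group; darker is more); right, chosen probes as a percentage of the probes of each plate. The first place holds 15 against 3 to 6 elsewhere, and the plates range from 1.33% to 3.65%.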

How the data were processed

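The authors deposited 1 table of ratios per probe and column, taken here as log2, the scale limma uses. Log base, numerator, background correction and normalisation method are unknown (not given in the sources used here). As tools, the submitters' processing notes name R 2.7.1 and limma 2.14.5. The columns are centred close to 0, so they hide any change shared by the whole array. Intensities were not analysed here, and the number of arrays limits the precision. No value was missing and no probe was filtered out. The 2 repeats of a tree were averaged. Members were taken by the rule, and all 3448 probes were fitted against 0 with limma 3.58.1 in R 4.3.3 with Benjamini-Hochberg adjustment; the fit was tested on simulated data. Descriptions and plots used Python 3.11.15 and matplotlib 3.10.9. Naming was limited to the 2 lowest members by code and the rest by rank, and 10 gene lists could not be matched because the table has no gene names. The members and lists were chosen with earlier results of these data known. The trees are separate individuals, so the spread between them includes labelling and hybridisation.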

Additional observations from a re-analysis of the deposited data

How the results depend on the processing

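Turning tree 1 to the opposite sign changed the counts most. Instead of 77 members, 2 probes met the rule, and limma called 0 negative probes, against 165 as deposited, with 134 at an unadjusted p under 0.05 and a negative mean. That setting also put Q7H1 at -0.94 and Q6I16 at -0.68, neither called. The loss of the 77 follows from the construction, since each was chosen with a negative ratio in tree 1. Other probes were free to meet the rule or to be called after the turn, so the counts of 2 and 0 were not fixed by it. Positive calls fell as well, from 367 as deposited to 0. The cause of these low counts was not tested. Leaving out a tree loosens the rule to 2 trees and gave 108 to 116 probes, the most without tree 1, and 115 to 222 negative calls. Columns centred on their medians or brought to a common scale, either repeat by itself and, chosen after seeing the data, centring of the 16 places kept both counts within 1.5 times. So did thresholds of -0.3 and -0.5 and the rule on all 6 columns for the members, and a robust variance and the tree as a random block for the calls. These settings gave 57 to 113 members and 143 to 186 negative calls. Repeat 1 alone kept 71 of the 77 members and repeat 2 alone 72.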
